A study of Sus scrofa with 8 samples.

Results

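Uteroferrin, the cathepsins and their secreted inhibitor cystatin C were followed as messenger RNA in the endometrium, the inner lining of the uterus, of pigs slaughtered 14 days after insemination. The genes were taken by symbol from a list of 10, which was chosen with earlier results of these data known. Entrez genes in the count tables were found for 9 of the 10 symbols, and each of them has a single transcript there. The symbol CTSL fitted 2 genes, Entrez 396926, which was formerly named CTSL1 and is now named CTSV, and Entrez 100515919, which carries the symbol CTSL now. Both were kept, which made 10 genes of the 21064 in the tables. CTSD (cathepsin D, an aspartic protease of lysosomes) was not analysed here.

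The endometrium came from German Landrace gilts (young female pigs) that had not reached puberty and were brought to ovulation with 750 IU of PMSG, a gonadotropin, and 500 IU of hCG given 72 h later. The 4 pregnant gilts were inseminated with Pietrain semen 24 h and 36 h after hCG, and their tissue was cut from reddened zones where embryos attach. The 4 control gilts were not pregnant: they received the supernatant of centrifuged semen from that boar, without its sperm, and their tissue came from comparable places. Each library pooled RNA from 3 places of 1 uterine horn of 1 animal, so the groups differ both in pregnancy and in the presence of attachment zones.

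Uteroferrin, the product of ACP5, is a purple acid phosphatase that binds iron. In the pig it is secreted by uterine glands under progesterone and carries iron to the conceptus, and in mouse and human the same enzyme marks osteoclasts and macrophages. Cathepsins are proteases of the lysosome, most of them with a cysteine in the active site, and they break down proteins within cells or, when secreted, in the matrix around them. Cystatin C, the product of CST3, is a secreted protein that blocks cysteine cathepsins.

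Total counts lay between 29009827 and 41016150 in pregnant libraries and between 28035007 and 32639743 in control libraries. A level is given in CPM, read counts scaled to the effective size of each library, as mean ± SD with n = 4 animals per group, and a change is a log2 ratio of pregnant over control ± SE. The test was edgeR's quasi-likelihood test, adjusted over all 18783 transcripts tested, with a threshold of 0.05 on the adjusted p. Control replicate 4 stood apart from the other controls on the first principal component, at −27.81 where the other controls lay at −46.07 to −42.32 and the pregnant libraries at 35.48 to 42.19.

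Of the 10 genes 3 rose in pregnant endometrium: CTSS, CTSC and CTSZ. Among all transcripts tested, 11.2% were called higher, 10.1% lower and 21.3% in either direction. In such tissue samples, more cells of a type and more RNA per cell cannot be told apart. The other 7 genes did not pass: ACP5, CST3, CTSB, CTSH, CTSK, CTSV and CTSL. None was called lower (0 by edgeR, DESeq2 and limma voom, and 0 at an unadjusted edgeR p under 0.05, where 6 were higher). Of all 18783 transcripts tested, 3163 were higher and 3277 lower at that unadjusted p. The median log2 change was 0.43 over the 10 genes and −0.02 over all transcripts tested. The groups did not overlap for 4 of the 10 genes, CTSS, CTSC, CTSZ and CTSB, each with the pregnant animals above, where 13.2% of all transcripts tested were separated in that direction and 12.9% in the other.

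**Figure D1:**
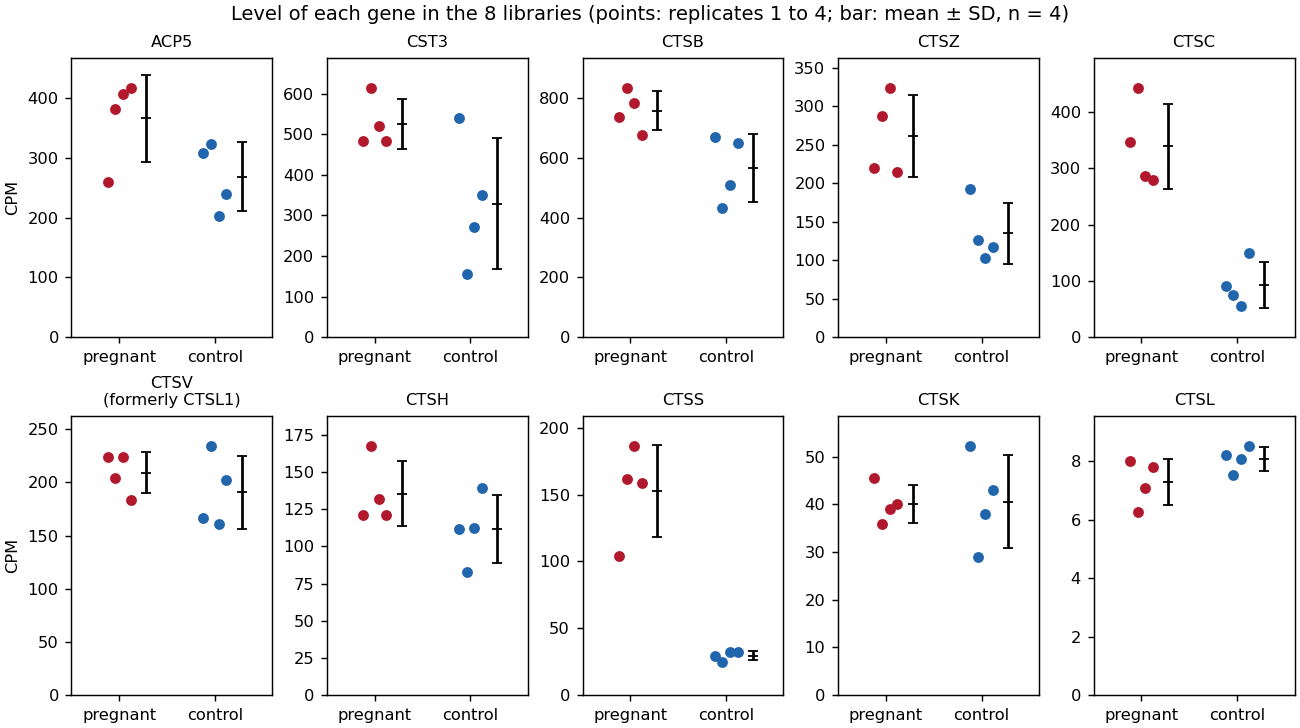
CPM (vertical axes, linear from 0, a different range in each panel) of the 10 genes in the 4 pregnant and the 4 control libraries. Points are replicates 1 to 4 and the bar beside them is the mean ± SD. CTSS and CTSC show a wide gap between the groups, whereas the points of ACP5, CST3, CTSH, CTSK, CTSV and CTSL overlap.

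Uteroferrin was abundant in both groups, and its difference between them did not pass the test. ACP5 had 260, 382, 407 and 417 CPM in pregnant replicates 1 to 4, against 309, 324, 202 and 240 CPM in control replicates 1 to 4. Pregnant replicate 1 lay within the range of the controls, and the other pregnant animals lay above it. The means were 366 ± 72.6 CPM in pregnant and 269 ± 57.5 CPM in control animals, a log2 difference of 0.45 ± 0.19 (95% interval 0.02 to 0.87; edgeR unadjusted p = 0.0404, adjusted p = 0.127). Without pregnant replicate 1 the log2 change was 0.58 and ACP5 passed (edgeR adjusted p = 0.0441; range over the alternatives 0.0441 to 0.277). The ACP5 model of the deposited annotation (Sscrofa10.2, chromosome 2, 70615519 to 70616018, minus strand) has 2 exons with 358 bases in all. That is too short to encode the whole enzyme, so these counts cover only a part of its transcript.

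The gene of a protein that binds uteroferrin behaved differently in the test. UABP-2, a serpin known as uteroferrin-associated basic protein, had 644, 1040, 568 and 1200 CPM in pregnant replicates 1 to 4, against 144, 316, 68.9 and 381 CPM in control replicates 1 to 4. The groups did not overlap, and UABP-2 rose by 1.92 ± 0.50 (edgeR adjusted p = 0.0237). It did not pass without pregnant replicate 2 or 4 or control replicate 1 (edgeR adjusted p = 0.0538, 0.0651 and 0.0751). Whether UABP-2 and ACP5 changed by different amounts was not tested.

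The largest change was in CTSS. Cathepsin S is a cysteine protease that trims the invariant chain of MHC class II molecules in antigen-presenting cells. CTSS had 104, 162, 186 and 159 CPM in pregnant replicates 1 to 4, against 29.4, 24.8, 32.0 and 31.9 CPM in control replicates 1 to 4. The lowest pregnant animal stood above 3 times the highest control, and controls differed little among themselves. CTSS rose by 2.37 ± 0.18, or 5.17-fold (95% interval of the log2 change 1.97 to 2.77; edgeR adjusted p = 1.69e-05), and passed under all 15 alternatives run. Its model lies on chromosome 4 (Entrez 100153090, 107665969 to 107691577, plus strand).

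CTSC came next. Cathepsin C, also called dipeptidyl peptidase I, removes dipeptides from the ends of proteins and so activates the serine proteases of cytotoxic and mast cell granules. CTSC had 346, 442, 287 and 278 CPM in pregnant replicates 1 to 4, against 90.0, 74.2, 56.0 and 149 CPM in control replicates 1 to 4. Control replicate 4 was the highest control and still lay below each pregnant animal. CTSC rose by 1.87 ± 0.28, or 3.66-fold (95% interval 1.25 to 2.50 on the log2 scale; edgeR adjusted p = 9.71e-04), and it too passed under all 15 alternatives, with log2 changes of 1.69 to 2.21. The gene lies on chromosome 9 (Entrez 100522387, 24081739 to 24116600, minus strand).

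CTSZ also rose. Cathepsin Z, or cathepsin X, is a carboxypeptidase that is abundant in monocytes and macrophages. It had 220, 287, 324 and 215 CPM in pregnant replicates 1 to 4, against 193, 126, 104 and 117 CPM in control replicates 1 to 4. Control replicate 1 came close to the lowest pregnant animals, and the groups did not overlap. The change was 0.95 ± 0.21, or 1.94-fold (95% interval 0.49 to 1.42 on the log2 scale; edgeR adjusted p = 0.00848), with log2 changes of 0.84 to 1.20 over the alternatives. On chromosome 17 (Entrez 100141405, 66511904 to 66519787, minus strand) the model shares 3 exonic bases with NELFCD on the opposite strand. The kit does not mark strand. NELFCD had a log2 change of −0.45 ± 0.14 (edgeR adjusted p = 0.0388, up to 0.11 over the alternatives, 7 of which it did not pass), and its part in the counts of CTSZ was not tested.

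Cystatin C was high in each pregnant animal and uneven among controls. CST3 had 482, 614, 521 and 483 CPM in pregnant replicates 1 to 4, against 539, 155, 271 and 349 CPM in control replicates 1 to 4. Control replicate 1 lay within the pregnant range and the other controls below it. The SD was 11.8% of the mean in pregnant animals and 49.1% in controls, which is a description of 4 animals each and was not tested. The log2 difference was 0.68 ± 0.30 (95% interval 0.01 to 1.34; edgeR unadjusted p = 0.0477, adjusted p = 0.141). Without control replicate 1 it was 1.04 and passed (edgeR adjusted p = 0.0196; range over the alternatives 0.0196 to 0.27), so 1 control animal decides this call.

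CTSB, which encodes the widely expressed endopeptidase cathepsin B, had the most reads of the 10 genes. It had 739, 835, 784 and 679 CPM in pregnant replicates 1 to 4, against 670, 434, 510 and 650 CPM in control replicates 1 to 4. The lowest pregnant animal and the highest control were nearly level. The log2 difference of 0.42 ± 0.16 (95% interval 0.08 to 0.77) did not pass (edgeR unadjusted p = 0.0219, adjusted p = 0.0821). Without control replicate 1 it was 0.54 with an edgeR adjusted p = 0.0451, and over the alternatives the adjusted p ran up to 0.192.

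The remaining cathepsins overlapped between the groups. CTSH, an aminopeptidase of lysosomes, averaged 136 ± 22.1 CPM in pregnant and 112 ± 23 CPM in control animals (log2 difference 0.28 ± 0.17, 95% interval −0.09 to 0.65, edgeR adjusted p = 0.27). CTSV averaged 209 ± 19.4 CPM in pregnant and 191 ± 34.4 CPM in control animals (0.13 ± 0.14, interval −0.18 to 0.45, edgeR adjusted p = 0.552). These intervals leave out a doubling in either direction, but a p that misses the threshold does not show equal levels. CTSL, the gene that carries the symbol now, had 7.29 ± 0.786 CPM in pregnant and 8.10 ± 0.411 CPM in control animals (−0.15 ± 0.15, interval −0.49 to 0.19, edgeR adjusted p = 0.519). CTSV and CTSL are relatives of similar sequence on chromosome 10 of the deposited annotation (76997836 to 77003496 and 31907420 to 31913491), and how the authors counted reads that fit both is not given in the sources used here.

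CTSK encodes cathepsin K, the protease with which osteoclasts break down bone collagen. It had 45.5, 35.8, 38.98 and 40.1 CPM in pregnant replicates 1 to 4, against 52.3, 29.0, 38.0 and 42.9 CPM in control replicates 1 to 4. The pregnant values all lay within the range of the controls, and the log2 difference was −0.02 ± 0.17 (95% interval −0.40 to 0.36; edgeR adjusted p = 0.959). CTSK and CTSS lie side by side on chromosome 4, both on the plus strand and 13.4 kb apart (CTSK from 107641165 to 107652523). Per kilobase of exon, the level of CTSS over that of CTSK was 1.39, 2.74, 2.90 and 2.40 in pregnant replicates 1 to 4, against 0.341, 0.518, 0.511 and 0.451 in control replicates 1 to 4. CTSS therefore exceeded CTSK in each pregnant animal, and CTSK exceeded CTSS in each control. The log2 ratio differed by 2.34 between the groups. This pair was chosen after its values were seen, so the ratio is a description, with no test.

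**Figure D2:**
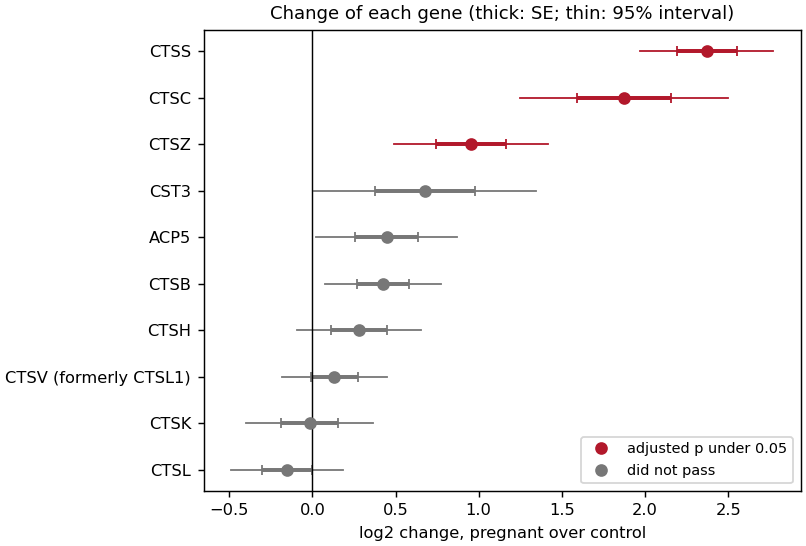
Log2 change of the 10 genes, pregnant over control (horizontal axis), with the SE as a thick and the 95% interval as a thin line. CTSS (2.37), CTSC (1.87) and CTSZ (0.95) passed the adjusted threshold and are drawn in red. The grey genes did not, and the intervals of CTSH, CTSV, CTSK and CTSL include 0.

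Levels can be compared between genes only per length, here in CPM per kilobase of exon. In pregnant endometrium CST3 (1114 ± 132) and ACP5 (1023 ± 203) stood highest and their ranges overlapped, followed by CTSB (402 ± 35.3). CTSZ (184 ± 37.4), CTSC (178 ± 39.8) and CTSV (152 ± 14) came next, each overlapping its neighbour in this order. CTSH (95.1 ± 15.5) and CTSS (93.2 ± 21.2) overlapped, above CTSK (40.3 ± 4.05) and CTSL (5.38 ± 0.58). In control endometrium ACP5 (751 ± 161), CST3 (698 ± 342) and CTSB (300 ± 60.1) led, where ACP5 overlapped CST3 and CST3 overlapped CTSB. Next came CTSV (138 ± 25), CTSZ (95.2 ± 28.1), CTSH (78.3 ± 16.1), CTSC (48.7 ± 21.3) and CTSK (40.8 ± 9.77), and each overlapped its neighbour. CTSS (18.0 ± 2.06) and CTSL (5.98 ± 0.304) followed, with no overlap. CTSC held rank 5 of the 10 genes in pregnant and rank 7 in control animals, and CTSS rank 8 in pregnant and rank 9 in control animals. The level of ACP5 rests on its short model. Set among all transcripts tested, CTSS was above 94.9% of them in pregnant and 71.5% in control animals, and CTSC above 97.5% and 89.2%.

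The cathepsin messages together were higher in pregnant endometrium and of another make-up. Summed over the 8 cathepsin genes, the level per kilobase was 1093, 1284, 1209 and 1019 in pregnant replicates 1 to 4, against 814, 636, 632 and 819 in control replicates 1 to 4. The groups did not overlap, and no test is given for this sum over chosen genes. CTSB gave the largest share, 35 ± 0.697% in pregnant and 41.2 ± 3.39% in control animals. CTSC gave 15.4 ± 2.49% in pregnant and 6.56 ± 2.13% in control animals, and CTSS 8.10 ± 1.74% and 2.51 ± 0.396%. CTSV gave 13.2 ± 1.37% in pregnant and 19.5 ± 5.1% in control animals. CTSZ gave 15.9 ± 2.1% in pregnant and 13.1 ± 2.9% in control animals. Since shares add up to a whole, a lower share of CTSV or CTSB goes with the higher levels of CTSC, CTSS and CTSZ.

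The ratio of CST3 to this sum varied more among controls than among pregnant animals, which was not tested. The level of CST3 over the summed cathepsins was 0.937, 1.015, 0.914 and 1.006 in pregnant replicates 1 to 4, against 1.41, 0.518, 0.911 and 0.906 in control replicates 1 to 4. Control replicates 1 and 2 held the highest and the lowest ratio of the 8 libraries, and control replicates 3 and 4 lay just below the pregnant animals.

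**Figure D3:**
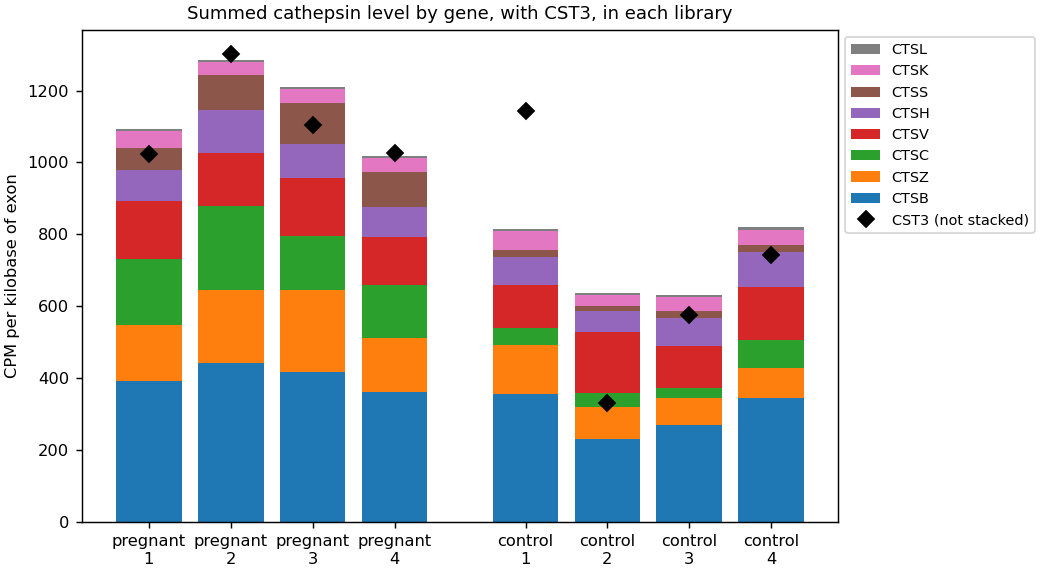
Level in CPM per kilobase of exon (vertical axis, from 0) of the 8 cathepsin genes, stacked, in each library, with CST3 as a black diamond that is not stacked. The pregnant bars reach 1019 to 1284 and the control bars 632 to 819, and the CTSC and CTSS parts are taller in each pregnant bar.

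Some pairs of the 10 genes varied together between animals of the same group and others did not. After each group's mean was taken out, the log2 CPM of CST3 went with that of CTSB (r = 0.924) and CTSK (r = 0.84), and that of CTSB with CTSH (r = 0.809). The lowest r were those of CTSV with CST3 (r = −0.594), CTSK with CTSV (r = −0.508) and ACP5 with CTSL (r = −0.434). Of the 45 pairs 26 had a positive r, with a median of 0.154. These r describe 8 libraries that share 2 groups and come with no test. The highest r of ACP5 with another of the 10 genes was 0.585, with CTSZ.

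Across the 8 libraries, the genes most like CTSS in log2 CPM were BATF2 (r = 0.998), IRF1 (r = 0.997) and ETV7 (r = 0.996), 3 transcription factor genes. All 3 rose, by 3.31, 3.29 and 2.97. The r of this paragraph include the difference between the groups. With each group's mean taken out, those of BATF2, IRF1 and ETV7 with CTSS were 0.95, 0.95 and 0.92. For ACP5 the most alike genes were ATP6V1B2 (r = 0.96), a subunit of the lysosomal proton pump, SPOCK1 (r = 0.948) and NELL2 (r = 0.943). For CST3 they were LY9 (r = 0.982), CIDEA (r = 0.977) and CD27 (r = 0.97), of which LY9 and CD27 are surface receptors of lymphocytes. For CTSV, as the more abundant gene under the name CTSL, they were KCTD6 (r = 0.938), DUSP3 (r = 0.908) and OXNAD1 (r = 0.903). The genes listed for ACP5, CST3 and CTSV did not pass the test between the groups. Each was picked as the highest r among all genes over few libraries, so no p is given.

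Of 5 other cathepsin genes matched and tested, 2 rose and 3 did not pass, with a median log2 change of 0.35. Over all transcripts tested, 11.2% were called higher. CTSW, a cathepsin of cytotoxic lymphocytes, had 41.6, 41.2, 45.3 and 30.5 CPM in pregnant replicates 1 to 4, against 26.9, 12.6, 12.3 and 12.03 CPM in control replicates 1 to 4. Control replicate 1 stood far above the other controls, and CTSW rose by 1.31 ± 0.27 (edgeR adjusted p = 0.00551). CTSO rose too (1.75 ± 0.31), at the low level of 2.04 ± 0.26 CPM in pregnant and 0.603 ± 0.178 CPM in control animals. The serine carboxypeptidase gene CTSA (0.35 ± 0.18), CTSF (0.31 ± 0.17) and the legumain gene LGMN (0.27 ± 0.13), whose product activates other cathepsins, had edgeR adjusted p = 0.193, 0.233 and 0.175. These 3 are named here because they complete the count. CTSA shares exonic bases with 2 other genes, so its value is uncertain. The same limit holds for genes named below: ACP2 shares exonic bases with 2 other genes, and SGSH, COL3A1 and EPCAM with 1 each.

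Of 9 other inhibitor genes matched, 5 could be tested, of which 4 rose and 1, CST6, did not pass (0.21 ± 0.29). The share called higher over all transcripts tested was 11.2%. CST7, cystatin F of immune cells, which in mouse and human holds cathepsin C in check, had 4.72 ± 1.26 CPM in pregnant and 1.598 ± 0.398 CPM in control animals (1.56 ± 0.28, edgeR adjusted p = 0.00248). SERPINB1, an inhibitor of neutrophil serine proteases, rose by 0.90 ± 0.18. AHSG and KNG1 encode plasma proteins with cystatin domains that are made mostly by liver. AHSG rose by 2.37 ± 0.43 at 4.07 ± 1.48 CPM in pregnant and 0.784 ± 0.42 CPM in control animals. KNG1 (1.34 ± 0.42) had overlapping groups and passed under 7 of 15 alternatives (edgeR adjusted p = 0.0453, up to 0.14). Among the genes that could not be tested, CSTL1 had 0 reads in all libraries.

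Most other lysosomal genes did not pass. Of 28 genes for acid hydrolases and their helper proteins 8 rose, 4 fell and 16 did not pass, with a median log2 change of −0.01. The share called was 42.9% of these genes, 34.6% of the membrane and proton pump genes and 16.7% of the sorting and TFEB family genes, beside 21.3% of all transcripts. The named members that rose most clearly were not all hydrolases. GM2A (2.10 ± 0.16) encodes an activator of ganglioside breakdown and PSAP (1.52 ± 0.24) the precursor of the saposins, while SCPEP1 (1.66 ± 0.30) encodes a carboxypeptidase and DNASE2 (1.19 ± 0.22) an acid nuclease. PSAP had 6421, 6537, 5854 and 5150 CPM in pregnant replicates 1 to 4, against 1896, 1970, 1356 and 3134 CPM in control replicates 1 to 4. Control replicate 4 was the highest control for PSAP, as it was for CTSC. Among those that fell were GALC (−0.89 ± 0.21), which encodes an enzyme of glycolipid breakdown, and SGSH (−0.54 ± 0.15), which encodes a sulfatase of heparan sulfate breakdown and did not pass under 4 of 15 alternatives (edgeR adjusted p up to 0.0855). The count of genes that fell was 2 without pregnant replicate 2, 3 or 4.

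Of 26 lysosomal membrane and proton pump genes 6 rose, 3 fell and 17 did not pass (median −0.03). All 3 that fell, ATP6V0D2, ATP6V0A1 and ATP6V1A (−0.55 ± 0.14), encode pump subunits, while other subunits, TCIRG1 and ATP6V1H (0.77 ± 0.15) among them, rose. ATP6V1A did not pass under 5 of 15 alternatives, and of the subunits called higher ATP6V1C1 did not under 8 and ATP6V1E1 under 7 (edgeR adjusted p up to 0.0668, 0.11 and 0.103). ATP6V0D2 fell by 3.46 on the log2 scale, with 4.67, 2.80, 6.22 and 3.42 CPM in pregnant replicates 1 to 4, against 45.1, 50.1, 52.7 and 40.1 CPM in control replicates 1 to 4 (SE 0.24, edgeR adjusted p = 1.23e-05). ATP6V0A1 fell by 0.98, and TCIRG1, which encodes another form of the same subunit as ATP6V0A1, rose by 1.13 ± 0.19. LAMP3, a membrane protein of mature dendritic cells, rose by 2.88 ± 0.43 at 2.08 ± 0.946 CPM in pregnant and 0.278 ± 0.0873 CPM in control animals.

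Of 12 genes for lysosomal sorting and for the TFEB family of transcription factors, 1 rose, 1 fell and 10 did not pass (median −0.16). TFEC, the family member found mainly in macrophages of mouse, rose by 3.52 ± 0.29, with 5.87 ± 1.32 CPM in pregnant and 0.506 ± 0.122 CPM in control animals (edgeR adjusted p = 2.22e-05). GGA1, an adaptor for the mannose 6-phosphate receptors, had a log2 change of −0.39 ± 0.11 (edgeR adjusted p = 0.0327). It did not pass under 7 of 15 alternatives (adjusted p up to 0.0883), among them each library left out except pregnant replicate 1 and control replicate 3. TFEB itself, a regulator of lysosomal genes, did not pass (0.14 ± 0.13).

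**Figure D4:**
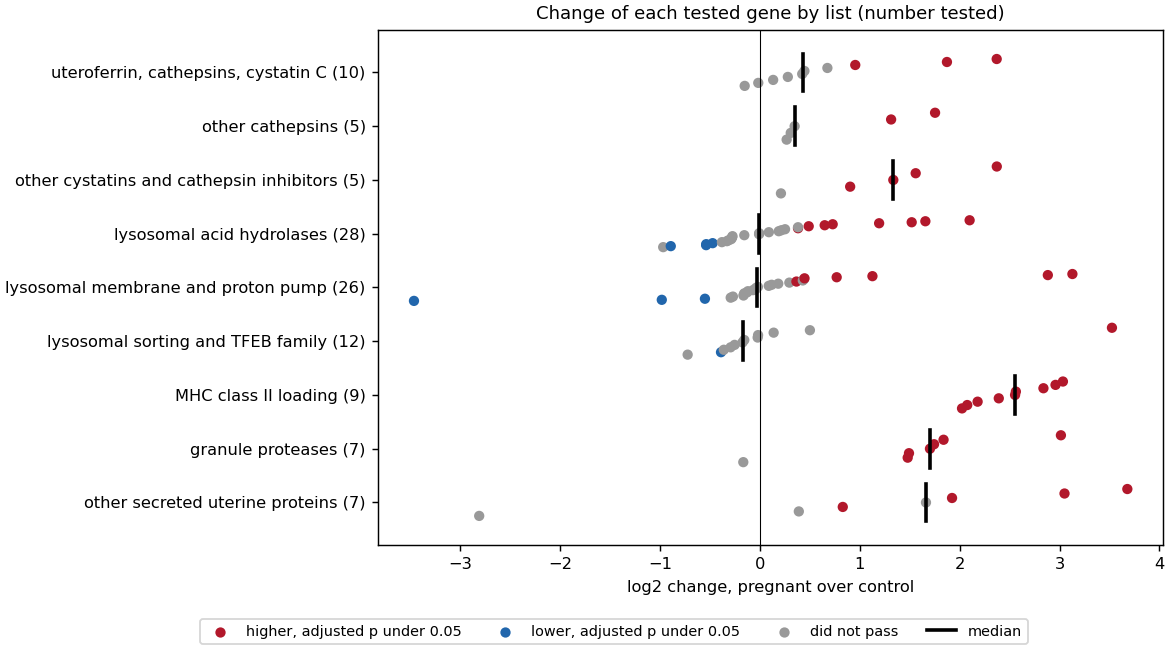
Log2 change, pregnant over control (horizontal axis), of each tested gene in the 10 genes described and in the 8 lists around them, with the number tested in brackets and the median as a black bar. Red and blue points passed as higher and lower and grey points did not. The medians are −0.01 for the acid hydrolases, −0.03 for the membrane and proton pump genes and −0.165 for the sorting and TFEB family genes. The 9 MHC class II loading genes lie between 2.02 and 3.03.

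The partners of the cathepsins that rose were measured in the same animals. All 9 tested MHC class II loading genes, whose pathway uses cathepsin S, rose (median 2.55), beside 11.2% of all transcripts tested. The groups of SLA-DOB overlapped, with 7.04 CPM in the lowest pregnant and 7.10 CPM in the highest control library, and it did not pass under 1 of 15 alternatives (edgeR adjusted p = 0.0596). SLA-DRA had 766, 1084, 1186 and 992 CPM in pregnant replicates 1 to 4, against 170, 89.4, 152 and 151 CPM in control replicates 1 to 4, and rose by 2.84 ± 0.22. In SLA-DRA, as in CTSS, pregnant replicate 1 was the lowest pregnant animal and replicate 3 the highest. These animals were also the lowest (35.48) and the highest (42.19) pregnant libraries on the first principal component. Not every gene of the list had this order, as SLA-DOA was lowest in pregnant replicate 4 (60.3 CPM). SLA-DQB1 (2.56 ± 0.19), SLA-DMA (2.56 ± 0.20) and SLA-DOA (3.03 ± 0.24) rose as well. Reads of the SLA family may be shared among its similar members, so the value of each is uncertain.

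Of 7 granule protease and granule genes, among them substrates of cathepsin C, 6 rose and 1, ELANE (−0.17 ± 0.27), did not pass (median 1.70). Over all transcripts tested the share called higher was 11.2%. GZMA had 1.98 ± 0.618 CPM in pregnant and 0.241 ± 0.0357 CPM in control animals (3.01 ± 0.35, edgeR adjusted p = 2.07e-04). GZMB (1.84 ± 0.38), the pore-forming protein gene PRF1 (1.49 ± 0.33) and the granule proteoglycan gene SRGN (1.48 ± 0.22) rose too. The summed level of the list was 49.65 to 80.2 CPM in pregnant and 17.1 to 30.8 CPM in control libraries.

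Of 9 other secreted uterine proteins matched, 7 could be tested, of which 4 rose, beside 11.2% of all transcripts tested. The other 3 did not pass, SAL1 (−2.81 ± 0.90), STC1 (1.66 ± 0.64) and LTF (0.39 ± 0.77), and the median of the 7 was 1.66. Those that rose beside UABP-2 were SPP1 (3.68 ± 0.66), an adhesion protein that uteroferrin can dephosphorylate, the protease inhibitor gene SLPI (3.05 ± 0.59) and the retinol carrier gene RBP4 (0.83 ± 0.22). RBP4 had 6256 ± 1026 CPM in pregnant and 3518 ± 1066 CPM in control animals. Its groups overlapped and it did not pass under 7 of 15 alternatives (edgeR adjusted p = 0.023, up to 0.0635).

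Markers of cell types were read in the same libraries, where 11.2% of all transcripts tested were called higher and 10.1% lower. Of 8 tested macrophage markers 7 rose and 1, MRC1 (−0.77 ± 0.22), fell, though the groups of MRC1 overlapped and it did not pass under 5 of 15 alternatives (edgeR adjusted p up to 0.0841). The summed level of the 9 matched was 1087 to 1442 CPM in pregnant and 367 to 672 CPM in control libraries. All 5 tested T cell markers rose, with sums of 48.8 to 104 CPM in pregnant and 10.9 to 25.0 CPM in control libraries. Of 5 tested markers of cytotoxic and natural killer cells 4 rose and 1, KLRK1 (1.01 ± 0.38), did not pass, and of those that rose NCR1 did not pass under 8 of 15 alternatives (edgeR adjusted p up to 0.115), with sums of 48 to 87.2 CPM in pregnant and 10.5 to 23.2 CPM in control libraries. The part of these cells in the changes of CTSS, CTSC and CTSZ was not tested.

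Of the epithelial and gland markers tested, 0 rose, where 11.2% of all transcripts tested were called higher and 10.1% lower. Of 5 tested epithelial markers 3, KRT8 (−2.10 ± 0.19), KRT18 (−1.58 ± 0.18) and KRT19 (−1.83 ± 0.30), fell, and 2, EPCAM and MUC1, did not pass, with sums of 541 to 748 CPM in pregnant and 1627 to 2391 CPM in control libraries. The gland markers FOXA2 and SOX17 did not pass (edgeR 0 of 2, 1 lower at an unadjusted p under 0.05, DESeq2 1 lower, limma voom 0), with sums of 149 to 184 CPM in pregnant and 154 to 446 CPM in control libraries. Of the osteoclast markers DCSTAMP had 0 reads, and all 4 together summed to 0.61 to 3.08 CPM in pregnant and 0.15 to 6.57 CPM in control libraries. CALCR, the only 1 of them tested, did not pass (−0.89 ± 0.95). It had 0.549 to 3.01 CPM in pregnant and 0 to 6.41 CPM in control libraries. Of the neutrophil markers MPO had 0 reads, and the sum of the 2 matched was 1.32 to 1.66 CPM in pregnant and 0.359 to 2.75 CPM in control libraries. All of that sum came from CXCR2, which did not pass (−0.12 ± 0.47). Of 5 tested stromal fibroblast markers 1, LUM, rose and 1, COL3A1, fell, of 4 vascular markers 1, KDR, rose, and of 3 smooth muscle markers 2, ACTG2 and CNN1, fell. LUM did not pass under 5 of 15 alternatives and COL3A1 under 4 (edgeR adjusted p up to 0.095 and 0.0682). The sums were 14380 to 21210 CPM, 733 to 1037 CPM and 31.1 to 58.2 CPM in pregnant libraries, against 23220 to 27810 CPM, 511 to 993 CPM and 80.5 to 120 CPM in control libraries. Of the 3 conceptus markers matched, the embryonic haemoglobin gene HBZ did not pass (0.12 on the log2 scale). Its level made up nearly all of the sum of the 3, which was 105 to 531 CPM in pregnant and 103 to 311 CPM in control libraries, so it was read in animals without a conceptus as well. IFNG had too few reads to be tested, with 4, 13, 5 and 4 reads in pregnant replicates 1 to 4, against 0, 2, 0 and 2 reads in control replicates 1 to 4.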

How the data were processed

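Raw counts of reads for each transcript of a merged assembly were deposited for 8 libraries, per the file headers, and 2 annotation files with exon positions. CASAVA 1.6, TopHat 1.4, Cufflinks 1.3, DESeq and the build Sscrofa10.2 are listed, with no role, in the submitters' processing notes; the counting tool is not given in the sources used here. Per the labels, RNA integrity numbers were 7.0 to 8.8 and the poly(A) kit does not mark strand. RefSeq's gene table (assembly Sscrofa11.1) gave symbols and no positions: 16270 of 21064 genes matched by Entrez ID.

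All counts were fitted in edgeR 4.0.16 (R 4.3.3) by the quasi-likelihood test with the robust option, TMM scaling, group as the only term and filterByExpr at a minimum count of 10, with Benjamini-Hochberg adjustment over 18783 transcripts; the filter left out 5356, and all 10 genes passed it. SE are those implied by the F statistic, and 95% intervals use the test's degrees of freedom. Alternatives were DESeq2 1.42.0, limma 3.58.1 (voom), RLE and upper quartile scaling, no filter, 1 transcript per gene, a replicate block and each library left out. The fits were tested on simulated data. Levels per kilobase use exon lengths of the deposited assembly. Correlations use log2 CPM with a prior count of 2.

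Named were the 10 genes, in every list the genes that passed with the smallest p, at most 4, and the 3 genes most like ACP5, CTSL, CTSS and CST3 (average log2 CPM of at least 1). CTSV, also in the list of other cathepsins, was counted once, among the 10 genes. Other genes that complete a small count, and NELFCD, were named after their values were seen; single values of some list members are not reported here. The members, lists and tests were chosen with earlier results of these data known. Replicates are separate animals. Counts are of PCR reads, not of independent molecules. No sequences were used here.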

Additional observations from a re-analysis of the deposited data

Results flagged for a closer look

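A library was singled out where its distance to the nearest of the other 3 in its group took up more of the group's range than Dixon's 95% critical value for 4 samples. The 76 groups of 4 screened, of the genes named, gave 3 such libraries, where chance gives about 1 in 20 groups.

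CTSW in control replicate 1 stood at 26.9 CPM, with the other controls at 12.03 to 12.6 CPM. Control replicate 1 was also the highest control for CTSZ, CST3, CTSB and CTSK. SRGN in control replicate 4 stood at 14.7 CPM, with the other controls at 9.01 to 9.73 CPM. SLPI in control replicate 4 stood at 142 CPM, with the other controls at 21.8 to 41.5 CPM. Control replicate 4 was the highest control for CTSC, PSAP and RBP4 as well. No library of the 10 genes described was singled out in this way.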

How the results depend on the processing

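The call of CTSS, CTSC and CTSZ held under the 15 alternatives run. The number of the 10 genes called higher was 3 in each of them except without control replicate 1, where it was 5, and without pregnant replicate 1, where it was 4 (range 3 to 5 with 1 library left out). CTSK, which did not pass, turned positive with limma voom (log2 difference 0.01), with the replicate block (0.01) and without pregnant replicate 2 (0.035), control replicate 1 (0.15) or control replicate 4 (0.012); with 1 library left out it ran from −0.144 to 0.15.

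Over all transcripts, 1265 to 2017 were called lower with 1 library left out, and the lowest count was without pregnant replicate 2. With 1 library left out, the hydrolase genes called lower numbered 2 to 4, the sorting and TFEB family genes called higher 1 to 2 and called lower 0 to 1, and the other secreted uterine proteins called higher 2 to 5 and called lower 0 to 1. Of the sorting genes 0 were called lower without the filter, and of the secreted proteins 1 was called lower with DESeq2. The cause was not tested.

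Nothing in the labels says that the replicate numbers pair animals. The deviations of same-numbered libraries from their group means had r of 0.186, −0.0932, −0.0318 and 0.0854. The r of 0.186 was the highest between any pregnant and any control library, but not every library went best with its own number. These r cannot show whether animals were paired. With the replicate block 2070 transcripts were called higher and 1813 lower, and of the listed genes that passed without it KNG1 (edgeR adjusted p = 0.0871), RBP4 (0.051), SLA-DOB (0.0596), NCR1, COL3A1, ACP2, ATP6V1C1 and ATP6V1E1 did not pass. Every one of the 10 genes has 1 transcript in the tables, so the alternative with other transcripts was not run.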
